A study of Mus musculus with 7 samples.

Results

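The regulators described here are 10 genes that act in the choice between mammary epithelial lineages: Elf5, Ehf, Stat5a, Stat5b, Kit, Sox10, Sox9, Gata3, Foxa1 and Trp63. They were taken by symbol, as 10 of the 33710 genes listed over 7 single-cell matrices. All but Kit encode transcription factors, and Kit encodes the receptor tyrosine kinase for stem cell factor. The tumors came from 7 MMTV-PyMT; HK2 f/f mice, 1 Drop-seq library per mouse, labelled wild type and taken 3 months after a palpable tumor developed. In these mice the mouse mammary tumor virus promoter drives the polyoma middle T oncogene (PyMT) in mammary epithelium, and the floxed HK2 alleles were intact. By the study's methods the control mice had a C57BL/6 background and received tamoxifen like the experimental mice. The endpoint there was set by tumor size or by signs of ill health such as weight loss, not by months. Tumors with HK2 deletion were not analysed here. All 7 libraries therefore form 1 control group, and the comparisons are between cell classes within the same mice.

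The mammary gland is a bilayer. Inner luminal cells comprise alveolar cells, which make milk, and hormone-sensing cells, which carry estrogen and progesterone receptors, and they are surrounded by contractile basal (myoepithelial) cells. ELF5 and STAT5 drive the alveolar fate downstream of prolactin, GATA3 maintains luminal cells, FOXA1 is a cofactor of the estrogen receptor in hormone-sensing cells, SOX9 and SOX10 act in progenitor cells, KIT marks luminal progenitors and p63 (Trp63) maintains the basal layer. PyMT tumors arise from luminal epithelium.

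Of 37000 barcodes, 15047 had between 200 and 6000 genes and were taken as cells, with 1133 to 4780 cells and 962677 to 4471473 UMIs (unique molecular identifiers, each counting 1 captured mRNA molecule) per mouse. Median depth was 527 to 694 UMIs per cell, so levels were taken from sums over the cells of a class in a mouse with at least 10 such cells, as counts per 1000000 UMIs of that sum (CPM). Of the cell barcodes, 5 occurred in more than 1 library. Cells were classed by the UMIs of fixed marker lists that hold none of the 10 regulators. The tumor class (6142 cells) rested on alveolar markers and PyMT, of which 2 had to be present, so PyMT itself was not required. The other classes were hormone-sensing luminal cells (634), myoepithelial cells (56), fibroblasts (976), endothelial cells (79), macrophages (1688) and T/NK cells (1137). The sums took in all tumor cells, fibroblasts and macrophages, in 7 mice each, all but 9 hormone-sensing and 2 T/NK cells, in 6 mice each, and 44 myoepithelial and 64 endothelial cells, in 3 mice each. Another 2876 cells met no list's limits and 909 met several. The transgene transcript stood at 1932 CPM over the tumor class against 137 CPM over the hormone-sensing class. As a tumor marker of the class rule, it is no independent check of the classes. The luminal keratin Krt19 stood at 710 and 8544 CPM in the same order.

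Both luminal classes held Epcam, at 3041 and 2699 CPM. The myoepithelial class was the thinnest and was not free of tumor transcripts. Of its 8 defining markers all had UMIs, but 4 of the 9 tumor markers did too, with a summed level of 3415 to 7236 CPM over its 3 mice, against 611 to 2691 CPM in macrophages. In the hormone-sensing class all 9 tumor markers had UMIs, at 621 to 3742 CPM. The part of this tumor RNA in the values below was not tested.

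In GRCm38, Elf5 lies at chr2:103411688-103450989 on the plus strand and its ETS-family relative Ehf nearby at chr2:103263433-103303278 on the minus strand. Kit lies at chr5:75574916-75656722 (plus), Foxa1 at chr12:57540628-57546916 (minus), Sox10 at chr15:79154908-79165240 (minus), Sox9 at chr11:112782224-112787760 (plus) and Trp63 at chr16:25683763-25892102 (plus). Stat5a (chr11:100859351-100885169, plus) and Stat5b (chr11:100780731-100850724, minus) are neighbors with nearly identical coding sequences, so reads may be split between them. Exons of Stat5a overlap Stat3 on the other strand, and exons of Gata3 (chr2:9857078-9890034, minus) overlap 9230102O04Rik on the same strand and Gm13256 on the other. Whether the counting used strand is not given in the sources used here, and the levels of Stat5a, Stat5b and Gata3 are uncertain to that extent.

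RefSeq start sites in GRCm38.p6 matched 6 of the 10 genes. Parts of 3 promoters outside annotated exons are shown because these genes differed between the luminal classes in opposite directions, Elf5 and Kit being higher in the tumor class and Foxa1 in the hormone-sensing class. Capitals mark a searched motif and all else is in lower case. The sequences run 5′ to 3′ on the gene's strand, from chr2:103423818-103424061 (plus), chr5:75574737-75574915 (plus) and chr12:57546122-57546361 (minus).
Elf5: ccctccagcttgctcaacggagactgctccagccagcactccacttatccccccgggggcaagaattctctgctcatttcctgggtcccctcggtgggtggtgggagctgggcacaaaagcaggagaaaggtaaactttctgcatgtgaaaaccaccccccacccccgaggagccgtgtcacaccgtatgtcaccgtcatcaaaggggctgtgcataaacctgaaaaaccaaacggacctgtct
Kit: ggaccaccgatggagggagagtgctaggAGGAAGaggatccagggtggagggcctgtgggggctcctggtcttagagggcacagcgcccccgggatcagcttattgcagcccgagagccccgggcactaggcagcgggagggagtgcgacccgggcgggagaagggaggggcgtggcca
Foxa1: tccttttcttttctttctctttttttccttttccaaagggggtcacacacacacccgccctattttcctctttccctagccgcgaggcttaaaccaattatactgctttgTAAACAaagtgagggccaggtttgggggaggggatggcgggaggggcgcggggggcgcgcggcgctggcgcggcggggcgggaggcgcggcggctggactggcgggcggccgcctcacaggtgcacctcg

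Searches covered the 250 bases before each start site on both strands. The Kit promoter held 1 match to the ETS core AGGAAG, 222 bases before the start, and 29.55% of 32536 RefSeq promoter windows of this length held that motif. The Foxa1 promoter held the forkhead core TGTTTA on its other strand (read here as TAAACA), beginning 140 bases before the start, as did 12.02% of windows. The Elf5 windows held none of these, nor the STAT motif TTCNNNGAA, nor AGATAA, bound by GATA factors, nor AACAAT, bound by SOX factors, which 7.041%, 9.97% and 9.347% of windows held. A match describes letters and is not evidence of binding.

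**Figure D1:**
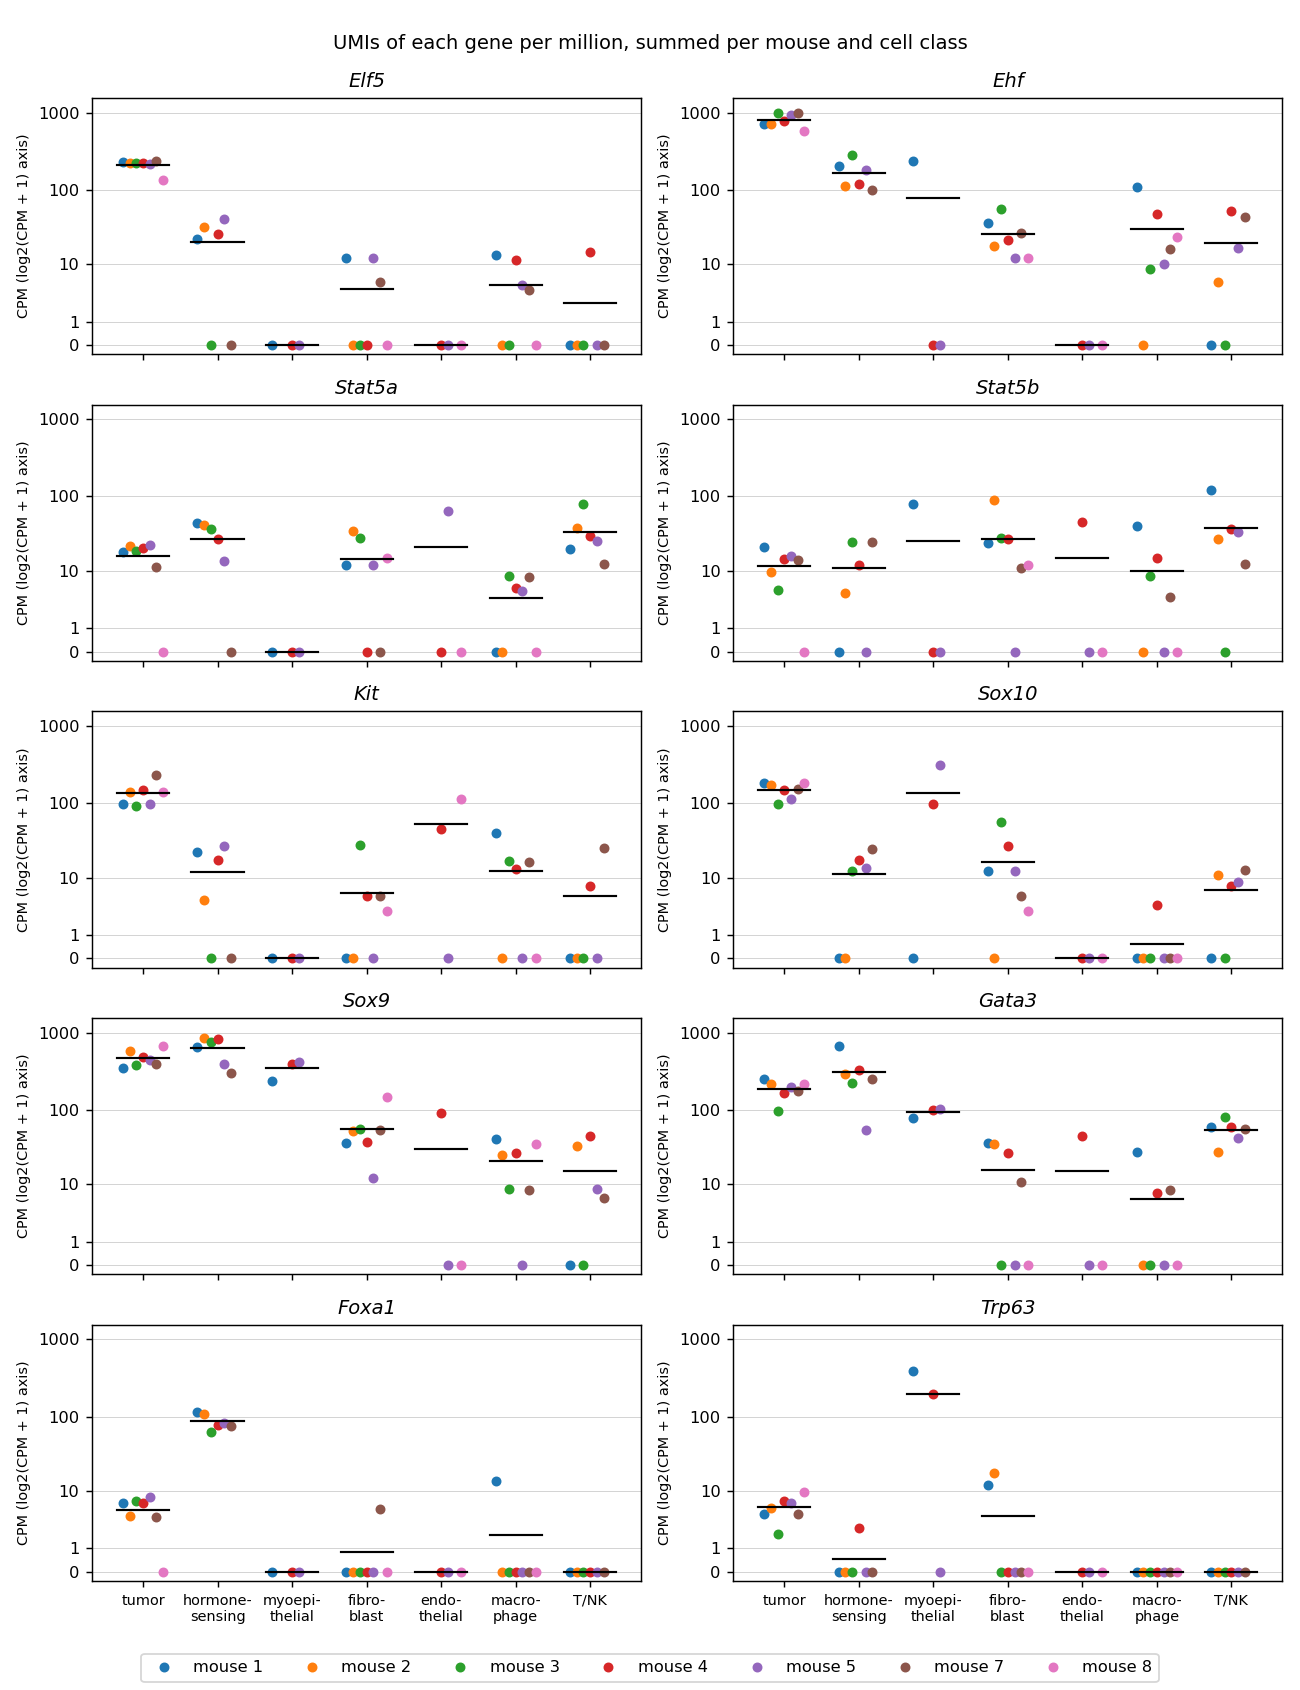
Level of each regulator in each cell class. Each point is the level in the summed cells of 1 mouse (log2(CPM + 1) axis), colors mark mice, and bars are means over mice. Elf5, Ehf, Kit and Sox10 of the tumor class lie above all points of the hormone-sensing class, and Foxa1 lies below them.

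The main question was which regulators separate the tumor class from the hormone-sensing luminal class of the same tumors. Elf5, Ehf, Kit and Sox10 were higher in the tumor class and Foxa1 was lower, while Sox9, Gata3, Stat5a, Stat5b and Trp63 did not pass the test. Thus 5 of 10 were called by edgeR's quasi-likelihood test with mouse as a block (adjusted p under 0.05), against 18.9% of all 15228 genes tested (13.7% higher, 5.13% lower). The median log2 fold of the 10 was 1.28, against 0.33 over all genes.

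Elf5, the ETS factor of alveolar differentiation, stood in the tumor class at 232, 225, 221, 221, 214, 240 and 135 CPM in mice 1, 2, 3, 4, 5, 7 and 8. In the hormone-sensing class it stood at 22.7, 32.9, 0, 25.8, 41.2 and 0 CPM in mice 1, 2, 3, 4, 5 and 7 (30 UMIs in all). The ranges did not overlap, and mouse 8 was lowest among the tumor sums. The means were 213 ± 35.3 (SD, n = 7) and 20.4 ± 17.1 CPM (SD, n = 6), a 10.4-fold ratio, and the log2 fold was 3.54 ± 0.33 (SE, adjusted p = 8.64e-22 by edgeR).

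Its neighbor Ehf, an ETS factor of epithelial cells, followed the same pattern. In the tumor class it stood at 704, 705, 1005, 782, 947, 986 and 583 CPM in the same mouse order, and in the hormone-sensing class at 204, 113, 288, 119, 178 and 99.4 CPM. Every tumor sum exceeded every hormone-sensing sum. The means of 816 ± 164 (SD, n = 7) and 167 ± 71.9 CPM (SD, n = 6) gave a 4.89-fold ratio, with a log2 fold of 2.84 ± 0.25 (SE, adjusted p = 2.38e-23 by edgeR).

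Kit, the luminal progenitor receptor, stood at 97.7, 140, 90.8, 150, 98.1, 235 and 140 CPM in the tumor class. The hormone-sensing sums held 22.7, 4.69, 0, 17.6, 27.5 and 0 CPM (17 UMIs in all). Mouse 7 was set apart at the top of the tumor class, and no hormone-sensing sum reached the lowest tumor sum. The mean ratio was 11.3-fold and the log2 fold 3.61 ± 0.38 (SE, adjusted p = 1.64e-17 by edgeR).

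Sox10, a neural crest factor that also acts in mammary progenitors, stood at 181, 173, 97.0, 146, 113, 155 and 183 CPM in the tumor class and at 0, 0, 12.5, 17.6, 13.7 and 24.9 CPM in the hormone-sensing class (16 UMIs in all). These ranges were also apart. The mean ratio was 13.1-fold and the log2 fold 3.89 ± 0.38 (SE, adjusted p = 8.94e-20 by edgeR). Elf5, Ehf, Kit and Sox10 were each higher in the tumor class in 6 of the 6 mice with both sums. The shares of all genes with the same class higher in 6 of 6 mice, or without overlap between these classes, were not computed.

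Foxa1, the estrogen receptor cofactor, was the 1 regulator called higher in the hormone-sensing class. Its sums there were 113, 108, 62.5, 77.4, 82.4 and 74.6 CPM, and those of the tumor class 6.74, 4.20, 7.30, 6.73, 8.17, 4.03 and 0 CPM. The hormone-sensing class was higher in 6 of 6 mice with no overlap. The means were 86.4 ± 20.01 (SD, n = 6, 99 UMIs) and 5.31 ± 2.81 CPM (SD, n = 7, 48 UMIs), a ratio of 16.3, and the tumor minus hormone-sensing log2 fold was -3.34 ± 0.37 (SE, adjusted p = 6.96e-16 by edgeR).

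These 5 calls held in every alternative fit that tested them. The log2 fold ranged from 3.03 to 3.76 for Elf5, from 2.45 to 3.24 for Ehf, from 3.31 to 4.45 for Kit and from 3.44 to 4.64 for Sox10, each over 20 alternatives. It ranged from -3.73 to -3.06 for Foxa1 over 19, as edgeR's own filter dropped this gene. With clusters in place of the marker rule, levels were compared by mean CPM without a test. The hormone-sensing cluster was broader (1724 cells in sums). The tumor levels were 4.03 times those of this cluster for Elf5, 2.80 times for Ehf, 3.94 times for Kit and 4.72 times for Sox10. These ratios were smaller by over 1.5 times than with the marker rule. For Foxa1 the hormone-sensing cluster was 24.6 times higher in mean CPM. The Foxa1 sums of that cluster ranged from 0 to 154 CPM, against 0 to 8.79 CPM in the tumor clusters, so these ranges overlapped.

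Sox9, a factor of luminal progenitors and of ductal growth, was high in both luminal classes. It stood at 351, 573, 386, 482, 450, 390 and 665 CPM in the tumor class and at 658, 859, 750, 840, 398 and 298 CPM in the hormone-sensing class. The ranges overlapped, and the hormone-sensing sum was the higher in 4 of 6 mice. These 4 were the mice of the CB title series and the other 2 those of the WT series, with log2 folds of -0.50 and 0.67 within the series, neither of which passed the test. The log2 fold was -0.15 (95% interval -0.58 to 0.28, adjusted p = 0.711 by edgeR).

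Gata3, which maintains luminal identity, stood at 249, 220, 96.0, 164, 200, 176 and 217 CPM in the tumor class and at 680, 296, 225, 330, 54.9 and 249 CPM in the hormone-sensing class. The hormone-sensing sum was the higher in 5 of 6 mice, all but mouse 5. Mouse 5 had the lowest hormone-sensing sum and mouse 1 the highest, a 12.4-fold spread, against 2.59-fold in the tumor class. The value of mouse 5 rests on 4 UMIs, and without that mouse the spread was 3.02-fold, or 6.01-fold without mouse 1. The tumor spread was 1.52-fold without mouse 3. The log2 fold was -0.18 (95% interval -0.65 to 0.28, adjusted p = 0.668 by edgeR). Within the CB and WT series it was -0.69 and 1.201, and neither passed the test. With total UMIs in place of TMM scaling, the log2 folds of Sox9 and Gata3 were -0.55 and -0.62 and both passed the test as lower in the tumor class. That scaling also moved the median of all genes from 0.33 to 0.017. It turned the share of higher calls among all genes from 72.8% to 49.0%.

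The STAT5 genes, which act downstream of the prolactin receptor, were sparse throughout. Stat5a averaged 16.5 ± 8.19 CPM in the tumor class (SD, n = 7, 144 UMIs) and 27.7 ± 17.8 CPM in the hormone-sensing class (SD, n = 6, 35 UMIs), with a log2 fold of -0.29 (95% interval -1.04 to 0.47). Stat5b averaged 11.6 ± 7.20 (SD, n = 7) and 11.1 ± 11.6 CPM (SD, n = 6), with a log2 fold of 0.66 (95% interval -0.34 to 1.67). Neither passed the test. Trp63 held 43 UMIs in the tumor class and 2 in the hormone-sensing class, with a log2 fold of 1.89 (adjusted p = 0.0893 by edgeR).

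**Figure D2:**
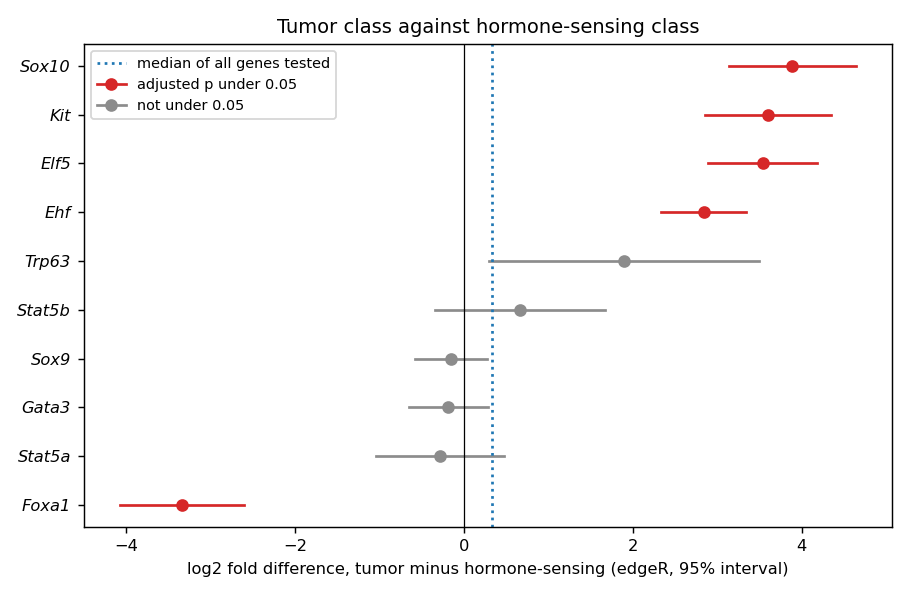
Log2 fold difference of each regulator, tumor class minus hormone-sensing class, with approximate 95% intervals derived from the F statistic of the edgeR test. Red marks an adjusted p under 0.05, and the dotted line is the median of all genes tested (0.33). Sox10, Kit, Elf5 and Ehf lie to the right, Foxa1 to the left, and the intervals of Sox9 and Gata3 include 0.

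In single cells these differences appeared as shares of cells with a UMI. Of tumor cells 19.6% held an Elf5 UMI, against 3.94% of hormone-sensing cells and 0.474% of macrophages, which should lack it, at median depths of 700, 1183.5 and 575 UMIs. After thinning each cell to 300 UMIs the shares were 6.17%, 0.620% and 0.329% (602, 23 and 88 shallower cells left out). Foxa1 UMIs were found in 13.2% of hormone-sensing cells and 0.619% of tumor cells, or 2.73% and 0.167% after thinning, against 0.0592% and 0.0619% of macrophages. Among these 3 classes the order by share was that by CPM for both genes. Barcodes under 200 genes, which can hold free RNA and poor cells, carried Elf5 at a median of 79.8 CPM over the 7 libraries, above its level in the hormone-sensing class. The part of a cell's UMIs that is free RNA was not measured, so medians of these barcodes are not a measured floor. Where a level under such a median is not read as expression below, that is a caution and not a test.

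Against the myoepithelial class, 7 of 10 regulators were called, 6 higher and 1 lower in the tumor class, where 10.3% of all genes were called (9.34% higher, 0.952% lower). The median log2 fold was 3.52 for the 10 and 2.56 for all genes. Of all calls 90.7% were higher in the tumor class, or 17.3% with total UMIs in place of TMM. The basal factor Trp63 was the lower one. It stood at 393, 198 and 0 CPM in the myoepithelial sums of mice 1, 4 and 5, which is 7 UMIs in all, against 2.09 to 9.64 CPM in the 7 tumor sums. The tumor minus myoepithelial log2 fold was -3.43 ± 0.80 (SE, adjusted p = 7.73e-04 by edgeR), and the call was lost with a stricter class margin, without mouse 1 and with DESeq2.

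Elf5 and Kit had no UMI in any myoepithelial sum. With the floor of 3 UMIs over that class, the tumor class was at least 2.44-fold higher for Elf5 and at least 1.59-fold higher for Kit. The call of Elf5 was lost in the WT title series alone, with its 1 myoepithelial sum, and that of Kit there, without mouse 4 and with total UMIs. Without milk genes among the tumor markers, the myoepithelial sums held 2 Elf5 UMIs (mean 50.5 CPM). Ehf stood at 78.6 ± 136 CPM (SD, n = 3, 3 UMIs, all in mouse 1), and its call (log2 fold 4.85 ± 0.60, SE, adjusted p = 3.42e-12 by edgeR) held in all 18 alternatives. Gata3 stood at 93.7 ± 13.2 CPM (SD, n = 3, 3 UMIs) and Sox9 at 349 ± 98.0 CPM (SD, n = 3, 11 UMIs) in the myoepithelial class. Their calls (log2 folds 2.86 ± 0.70 and 1.90 ± 0.48, SE, adjusted p = 0.00146 and 0.00220 by edgeR) held in 10 and 8 of 18 alternatives. The ratios of the mean CPM were 2.01 and 1.35, and with total UMIs in place of TMM the log2 folds were 1.31 and 0.29 and did not pass the test. With clusters the Gata3 difference was gone, at means of 173.4 and 172.8 CPM. The myoepithelial cluster held more tumor-marker than myoepithelial-marker UMIs in each mouse, and the part of tumor RNA in its Gata3 level was not tested.

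Sox10 was detected in both classes. Its myoepithelial sums were 0, 98.9 and 310 CPM in mice 1, 4 and 5, 4 UMIs in all, and their range covered that of the tumor class. The log2 fold of 1.91 ± 0.67 (SE, adjusted p = 0.0470 by edgeR) passed the test, but in 2 of 18 alternatives only, and it was -0.058 in the WT title series alone, where mouse 5 gave the 1 myoepithelial sum. A broader cluster of 299 cells, named from myoepithelial markers, held Sox10 at 116, 249, 122, 251 and 125 CPM in mice 1, 4, 5, 7 and 8. Their mean of 173 CPM (SD 70.6, n = 5) was above the 141 CPM (SD 27.2, n = 7) of the tumor clusters, and with the stricter class margin the myoepithelial mean (210 CPM, 3 UMIs in 2 mice) was also above that of the tumor class (152 CPM). In this cluster the tumor markers summed to more than the myoepithelial markers in each of the 5 mice (40838 against 1508 CPM in mouse 7), so its name is doubtful. Among its cells, 48 held a Sox10 UMI, and in these the tumor markers summed to 29315 CPM against 18651 CPM in the other 251, and the myoepithelial markers to 2216 against 5337 CPM. Schwann cell markers had UMIs in 16 of the 48 and 32 of the 251, at median depths of 857 and 573 UMIs, and summed to 387 and 262 CPM. None of the 4 Schwann markers had a UMI in the 3 myoepithelial sums of the marker rule. The part of tumor or glial RNA in this Sox10 level was not tested.

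Between the hormone-sensing and myoepithelial classes 4 of 10 regulators were called, against 7.34% of all genes (5.82% higher, 1.52% lower), with Foxa1, Gata3 and Sox9 higher and Trp63 lower in hormone-sensing cells. The median log2 fold was 2.54 for the 10 and 2.03 for all genes, and 79.2% of all calls were higher, or 19.2% with total UMIs. The log2 folds were 3.04 ± 0.70 for Gata3 (SE, adjusted p = 8.11e-04 by edgeR), 2.05 ± 0.48 for Sox9 (SE, adjusted p = 0.00130) and -5.32 ± 1.04 for Trp63 (SE, adjusted p = 3.86e-05). The ratios of the mean CPM were 3.26 for Gata3 and 1.82 for Sox9. With total UMIs in place of TMM their log2 folds were 1.93 and 0.85, and of the 4 calls that of Trp63 was left. No Foxa1 UMI was found among the 32485 UMIs of the myoepithelial sums, which allows up to 92.4 CPM, above the hormone-sensing level of 83.4 CPM over all sums. None of the 4 calls held in all alternatives.

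**Figure D3:**
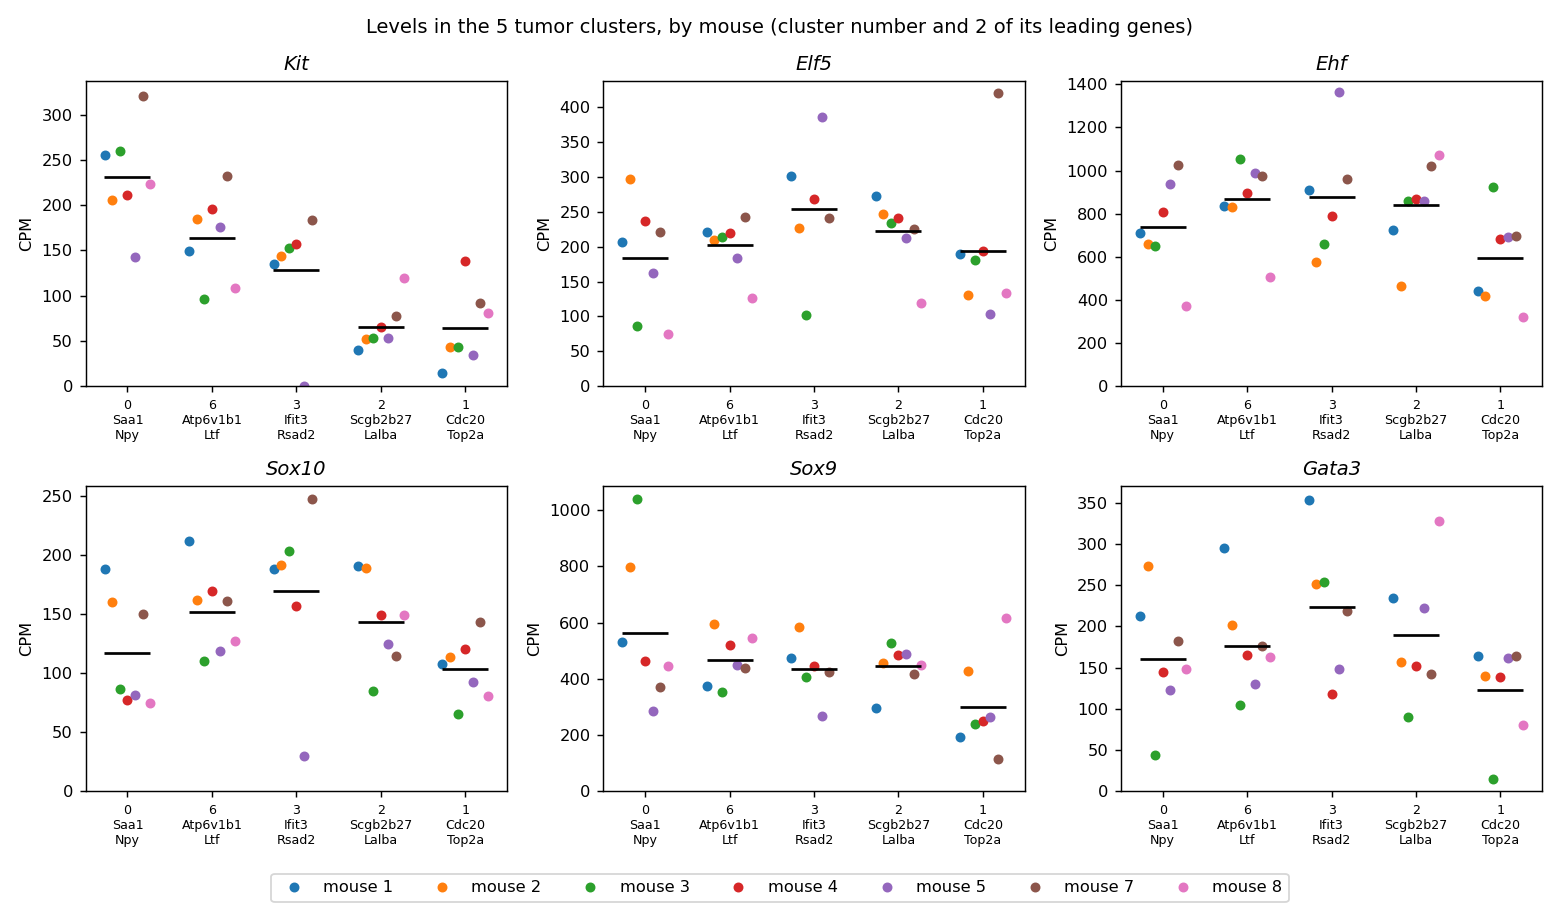
Levels of 6 regulators in 5 tumor clusters, named by number and 2 leading genes. Points are mice (CPM, linear axis from 0), and black bars are means over 7 mice (6 for cluster 3). Kit is highest in cluster 0 and lowest in clusters 2 and 1, and Elf5 varies little.

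Clustering put 6060 cells into 5 tumor clusters led by different genes, and 5381 of the 6142 cells of the tumor class were among them. The regulators varied among these clusters by unequal amounts. The clusters used the same cells, so these levels are a description without a test, although the 10 genes were left out of the clustering. Kit averaged 231 CPM in cluster 0, led by the acute-phase gene Saa1 and by Npy (698 cells), and 163 CPM in cluster 6, led by Atp6v1b1 and the lactoferrin gene Ltf (3214 cells). It averaged 129 CPM in cluster 3, led by the interferon-induced genes Ifit3 and Rsad2 (518 cells). It was lower in cluster 2, led by Scgb2b27 and holding the milk gene Lalba (65.9 CPM, 1174 cells), and in the proliferating cluster 1, with Cdc20 and Top2a (64.0 CPM, 456 cells).

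Cluster 0 exceeded cluster 2 for Kit in each of the 7 mice. The sums of mice 1, 2, 3, 4, 5, 7 and 8 were 255, 205, 260, 211, 143, 321 and 223 CPM in cluster 0 and 40.4, 52.1, 53.2, 65.6, 53.7, 77.2 and 119 CPM in cluster 2. The highest cluster mean of Kit was 3.62 times its lowest. This ratio was 1.38 for Elf5, 1.47 for Ehf, 1.64 for Sox10, 1.81 for Gata3 and 1.87 for Sox9. Among the sparse regulators, whose cluster means were all under 30 CPM, it was 7.84 for Stat5b, 4.79 for Trp63, 2.92 for Foxa1 and 1.95 for Stat5a.

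Outside the epithelium the regulators, Stat5a and Stat5b aside, stood below the epithelial class in which their mean was highest. Against fibroblasts 6 of 10 were called, all higher in the tumor class, with 33.4% of all genes called (20.8% higher, 12.6% lower), and against endothelial cells also 6, with 13.5% called (11% higher). Against macrophages 9 were called, with 40.1% of all genes called (27.5% higher), and against T/NK cells 8, with 37.3% called (28% higher), again all higher in the tumor class. The median log2 folds of the 10 were 3.35, 4.21, 4.29 and 4.21 in this order, and those of all genes 0.39, 2.10, 0.48 and 0.59. Higher calls made up 81.5% of all calls against endothelial cells and 75.1% against T/NK cells, or 26.03% and 59.4% with total UMIs, and 62.2% against fibroblasts, or 72.2% with DESeq2 size factors. With total UMIs no called regulator changed direction in these 4 comparisons, while the log2 folds of Stat5a and Stat5b against endothelial cells, which did not pass the test, went from 0.999 and 0.43 to -0.18 and -0.77.

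Elf5, Ehf, Kit, Sox10, Sox9 and Gata3 were the 6 genes called in each of these 4 comparisons. The tumor sums did not overlap the fibroblast, macrophage and T/NK sums for any of them. The shares of all genes called in all 4 comparisons, or without overlap, were not computed. Sox10 had the largest of these log2 folds against macrophages, at levels of 150 ± 33.7 against 0.545 ± 1.44 CPM (SD, n = 7 each). The 2 macrophage UMIs gave an exact 95% counting interval of 0.184 to 5.48 CPM over all sums, with a log2 fold of 6.31 ± 0.50 (SE, adjusted p = 1.63e-29 by edgeR). No endothelial sum held a UMI of Elf5, Ehf or Sox10, and with the floor of 3 UMIs over that class the tumor class was at least 4.13, 15.5 and 2.76 times higher.

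For Kit the endothelial sums held 3 UMIs, with a mean of 53.5 ± 57.8 CPM (SD, n = 3), and overlapped the tumor sums. Mouse 8 held 2 of the UMIs, and without it the mean was 22.9 CPM. The mean over 3 mice was below the median of 82.3 CPM in barcodes under 200 genes, and it is not read as expression. The log2 fold was 2.40 ± 0.73 (SE, adjusted p = 0.0123 by edgeR), and the call was lost in 9 of 19 alternatives.

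Gata3, which also directs T cell differentiation, differed between the classes outside the epithelium. The T/NK sums ranged from 27.7 to 80.2 CPM with a median of 58.4 CPM (31 UMIs), against 6.19 ± 10.1 CPM in macrophages (SD, n = 7). The macrophage minus T/NK log2 fold was -2.48 ± 0.57 (SE, adjusted p = 1.88e-04 by edgeR), where 19.9% of all genes were called. T/NK cells also exceeded fibroblasts, by a log2 fold of 1.51 ± 0.53 (SE, adjusted p = 0.0183 by edgeR), where 30.5% of all genes were called. The T/NK median lay below the 125 CPM median of barcodes under 200 genes, so the level alone is not read as expression. The T/NK level was below that of tumor cells by a log2 fold of 2.37 ± 0.32 (SE, adjusted p = 7.57e-12).

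In fibroblasts Sox9 stood at 56.9 ± 42.6 CPM (SD, n = 7, 74 UMIs), where mouse 8 held 48 of the UMIs, below the 249 CPM median of barcodes under 200 genes, and this level is not read as expression. Stat5a and Stat5b were sparse here too. T/NK cells averaged 34.6 ± 24.1 CPM of Stat5a and 38.7 ± 42.2 CPM of Stat5b (SD, n = 6). They exceeded the tumor cells for Stat5a in 6 of 6 mice and for Stat5b in 4 of 6, and neither difference passed the test. Stat5a was higher in tumor cells than in macrophages (log2 fold 1.58 ± 0.53, SE, adjusted p = 0.0102 by edgeR), a call lost within each title series and without mouse 4. The Stat5a mean was highest in T/NK cells and even there lay below the 35.8 CPM median of barcodes under 200 genes. Its level is therefore not read as expression. Foxa1 and Trp63 were also called in tumor cells above macrophages and T/NK cells, where they had 0 or 1 UMI. With the floor of 3 UMIs over the class at 0, the tumor level was at least 1.27-fold higher for Foxa1 against T/NK cells, and for Trp63 at least 2.31-fold against macrophages and 1.14-fold against T/NK cells. The tumor mean of Foxa1 (5.31 CPM) was below the 5.71 CPM median of barcodes under 200 genes and is not read as expression. That of Trp63 (5.78 CPM) lay near its median there (5.165 CPM, from 0 to 13.3 CPM over libraries) and is not read as expression either. For Foxa1 these calls held in 10 of 19 and 14 of 19 alternatives, and for Trp63 in 16 of 18 and 13 of 18.

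Ordered by mean CPM over the 7 classes, neighbors differed in 10 of 60 pairs. Tumor cells came first for Elf5, Ehf, Kit and Sox10, hormone-sensing cells for Sox9, Gata3 and Foxa1, myoepithelial cells for Trp63 and T/NK cells for Stat5a and Stat5b. In means taken without 1 mouse, chosen after seeing the data, T/NK cells fell to second place for Stat5a without mouse 3 (25.5 CPM, hormone-sensing cells 25.7 CPM). They did so for Stat5b without mouse 1 (22.5 CPM, from 38.7 CPM with it, fibroblasts 27.9 CPM) and without mouse 4 (38.9 CPM, myoepithelial cells 39.3 CPM). Myoepithelial cells came first for Sox10 without mouse 1 (205 CPM, tumor cells 145 CPM) and without mouse 4 (155 CPM, tumor cells 150 CPM). The first class differed from the second for Elf5, Ehf and Foxa1. It also differed for Kit, over 3 UMIs of endothelial cells, and for Trp63, with 7 UMIs of myoepithelial cells. Both of these calls were lost in part of the alternatives, as given above. For Sox10 it differed too, but the call held in 2 of 18 alternatives and the order turned as above. For Sox9 and Gata3 the 2 luminal classes could not be ordered with TMM scaling, and tumor cells differed from the next class, myoepithelial cells. With total UMIs, the scale of the CPM, both genes passed the test as lower in tumor than in hormone-sensing cells. Their differences between tumor and myoepithelial cells then did not pass. For Stat5a and Stat5b no neighbors differed.

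Genes that work with these regulators were counted in fixed lists. Of 15 other luminal and alveolar regulators, 8 were higher and 3 lower in the tumor than in the hormone-sensing class, with a median log2 fold of 0.95, beside 13.7% higher, 5.13% lower and a median of 0.33 over all genes. Xbp1, which builds the secretory apparatus, Cebpb and Nfib, factors of alveolar development, were higher by log2 folds of 2.79, 3.14 and 2.82, and Klf5 had a log2 fold of 0.33 that did not pass the test. The 3 lower ones, named after their values were seen, were Elf3 (-1.07), Tbx3 (-4.23) and Myb (-2.76). Of 6 luminal keratin and adhesion genes 1, Epcam, was higher (0.60), and 4 were lower: Krt18 (-0.83), Krt8 (-0.87), Krt19 (-3.20) and Krt7 (-2.25).

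Of 9 genes of the JAK-STAT pathway, 1 was higher and 3 lower, with a median log2 fold of 0.27, beside the 13.7% higher and 5.13% lower and the median of 0.33 over all genes. Socs2, a STAT5-induced inhibitor of cytokine signaling, was higher (log2 fold 1.30), while Socs3 (-1.42), Cish (-1.02) and Jak2 (-1.75) were lower. SOCS3 and CISH are also inhibitors that STATs induce. Stat3 and Jak1 did not pass the test (0.58 and 0.53). Of 4 genes of KIT signaling, the PI3 kinase subunit gene Pik3r1 was higher (2.20), and Grb2, Cbl and the ligand gene Kitl (0.23, -0.36 and 0.14) did not pass.

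Of 8 tested basal and mesenchymal regulators, 2 were higher in the tumor than in the hormone-sensing class, Mef2c (log2 fold 3.01) and Snai1, which averaged 15.8 CPM in the tumor class and had no UMI in the hormone-sensing sums. The median log2 fold of the 8 was 0.73, beside 13.7% higher, 5.13% lower and a median of 0.33 over all genes. Against fibroblasts, all 8 were lower in the tumor class, including Zeb2 (-5.50), Zeb1 (-5.23), Mef2c (-1.71) and Snai1 (-1.46), while 12 of the 15 luminal regulators were higher and 1 lower, beside 20.8% higher and 12.6% lower over all genes. Against the myoepithelial class, 2 of the 8 were lower, Snai2 (-4.73) and Id4 (-4.46), and 6 of the 15 luminal regulators were higher, beside 0.952% lower and 9.34% higher over all genes. In the myoepithelial sums Snai2 held 7 UMIs (241 ± 418 CPM, SD, n = 3), a spread above its mean. Id4 held 18 UMIs there (540 ± 157 CPM, SD, n = 3).

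**Figure D4:**
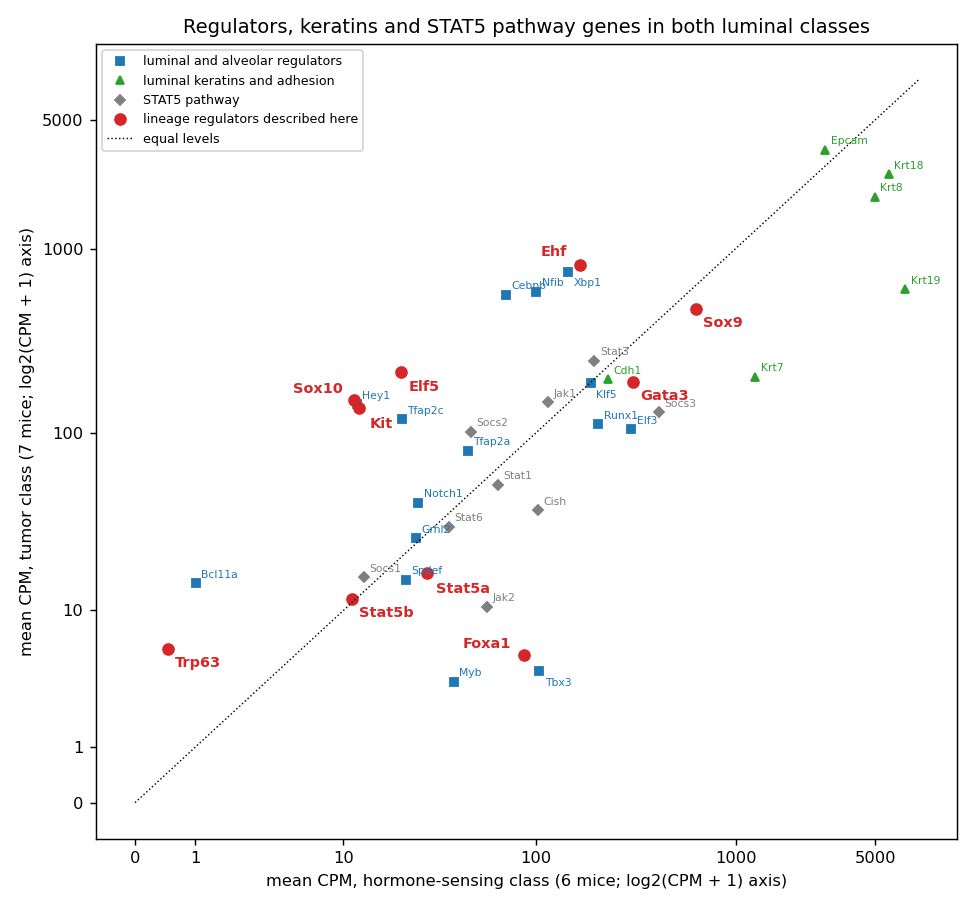
Mean level in the hormone-sensing class (6 mice) against the tumor class (7 mice), both as CPM on log2(CPM + 1) axes. Red circles are the 10 regulators and other symbols are the fixed lists, and the dotted line marks equal levels. Elf5, Ehf, Kit and Sox10 lie above the line with Xbp1, Cebpb and Nfib, and Foxa1 lies below it with Tbx3.

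The genes whose levels followed each regulator most closely were ranked by Pearson correlation over the 39 sums of class and mouse (log2(CPM + 10), mean of each mouse removed), among 7573 genes. The sums of a mouse share a library and those of a class share cell type and marker rule, so no p is given. Elf5 was followed by Proser2 (r = 0.94), Ehf by the claudin gene Cldn7 (0.90), Kit by Ltf (0.88) and Sox10 by Timd2 (0.87) and the PyMT transcript (0.86), a marker of the tumor class. Sox9 was followed by Krt8 (0.92), Gata3 by Spint2 (0.92), Foxa1 by Prom2 and Fgfr2 (0.97 and 0.96) and Trp63 by the basal keratin Krt17 (0.79), a myoepithelial marker. Stat5a was followed by Fbxo9 (0.81) and Stat5b, the least closely of the regulators, by Rora (0.73). Of the 30 genes that ranked among the first 3 of a regulator, 19 did so also with 1 CPM added in place of 10.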

How the data were processed

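Single cells of 7 control tumors were profiled by Drop-seq. Per the study's methods, the authors mapped reads to a genome of mm10 plus PyMT. They deposited 1 matrix of UMI counts for each tumor, in whole numbers without normalization. The submitters' processing notes name STAR, FastQC and the human builds GRCh37.p13 and hg19, at odds with mm10, and versions are not given in the sources used here. The 10 genes, the marker lists and the gene lists were chosen with earlier results of these data known, and the class rule was set after seeing the data.

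Mitochondrial genes, present in 2 of the 7 matrices, were dropped, and barcodes with 200 to 6000 genes were kept (Python 3.11.15, scanpy 1.11.5). A cell took a class other than tumor when the class's markers held at least 3 UMIs of 2 markers, 0.4% of its UMIs and 3 times the next non-tumor list. Its tumor-marker UMIs had to be under 2%, and no such margin over the tumor list was required. A tumor cell met the limits of no other list and needed 3 UMIs of 2 tumor markers and 1% tumor-marker UMIs. Between 0.5 and 2% of tumor-marker UMIs lay 1818 cells, 756 of them classed as tumor cells. Scrublet called 64 of 15047 cells (0.425%), too few to have worked, so doublets were left to the limit on genes and to the cells that met several lists.

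UMIs were summed per mouse and class with at least 10 cells. The 39 sums were fitted together in edgeR 4.0.16 (R 4.3.3) by quasi-likelihood with TMM, class and mouse as terms, and genes of at least 20 UMIs, with Benjamini-Hochberg adjustment over 15228 genes per comparison and a threshold of 0.05. Sums of 1 mouse share an animal and a library, and their deviations from class means correlated (median r = 0.209 over 63 pairs, -0.039 for 372 pairs of different mice). The quasi-likelihood test gives no standard error, so SEs of log2 folds were computed as the absolute log2 fold over the square root of F. The 95% intervals of log2 folds were built from these SEs and the t distribution, and both are approximate. The depth of a sum set the precision, from 32485 UMIs over the myoepithelial sums to 8163056 over the tumor sums. Exact counting intervals and the floor of 3 UMIs cover counting error only. Clusters (20 principal components, resolution 0.6) left the 10 genes out. Named genes were the 10 regulators, markers, the list genes of the most UMIs and the 3 genes most correlated with each regulator. Alternatives were other class rules, cell and gene limits, scalings, tools, filters and title series, and leaving out each mouse. The CB title series (mice 1 to 4) and WT title series (5, 7 and 8) are named only as in the titles.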

Additional observations from a re-analysis of the deposited data

Results flagged for a closer look

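Among 47 sets of 6 or 7 mice, each of 1 regulator in 1 class, 15 had a highest or lowest mouse set apart from the rest. For normally distributed values chance gives about 1 in 20. Whether these levels are so distributed was not tested, and the rate for counts as low as most of these was not computed. In the tumor class, mouse 8 was lowest for Elf5 at 135 CPM (28 UMIs), with the next mouse at 214 CPM, and mouse 7 was highest for Kit at 235 CPM (467 UMIs), with the next at 150 CPM. In fibroblasts, mouse 8 was highest for Sox9 at 147 CPM (48 UMIs), with the next at 56.0 CPM.

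The other 12 rested on 1 to 6 UMIs in the mouse set apart. Stat5b reached 88.9 CPM in fibroblasts of mouse 2, 41.2 CPM in macrophages of mouse 1 and 120 CPM in T/NK cells of mouse 1. Kit reached 28.0 CPM in fibroblasts of mouse 3, 41.2 CPM in macrophages of mouse 1 and 25.3 CPM in T/NK cells of mouse 7. Elf5 reached 15.1 CPM in T/NK cells of mouse 4, Sox10 3.82 CPM in macrophages of mouse 4, Gata3 27.5 CPM in macrophages of mouse 1 and Trp63 2.71 CPM in hormone-sensing cells of mouse 4. Foxa1 reached 5.46 CPM in fibroblasts of mouse 7 and 13.7 CPM in macrophages of mouse 1.

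The barcodes under 200 genes, which entered no comparison, carried Ehf at a median of 465 CPM over the 7 libraries (103 to 623 CPM), above its mean in each of the 6 classes other than tumor cells, of which the hormone-sensing class was highest at 167 CPM.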

How the results depend on the processing

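Of 45 calls of the 10 regulators in 7 comparisons, 27 held under every alternative fit that tested them and 44 kept their direction. The exception was Sox10, tumor minus myoepithelial, at -0.058 in the WT series alone, which has 1 myoepithelial sum. The CB series has 1 endothelial sum, and such a lone sum is assumed to vary like the other classes. With clusters, compared by mean CPM without a test, 44 of the 45 kept their direction, though Gata3, tumor minus myoepithelial, was close to a tie (173.4 and 172.8 CPM), and the other was again Sox10 (141 and 173 CPM). The counts of called regulators by clusters and without doublets were not run, the former because clusters rest on the same cells' genes and the latter because the caller had not worked. A minimum of 500 genes per barcode or of 20 cells per sum left no myoepithelial comparison, and 500 genes left no endothelial one.

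Against myoepithelial cells the tumor class had 7 calls. There were 3 with the stricter margin, 3 with total UMIs alone, 3 with filterByExpr, 4 with only these classes in the fit, 4 in the CB series, 1 in the WT series and 3 to 6 without 1 mouse, with 3 without mouse 1 and 3 without mouse 4. For hormone-sensing minus myoepithelial cells the 4 calls became 0 with the stricter margin, 0 in the WT series, 0 with only these classes in the fit, 1 with total UMIs, 2 without milk genes among the tumor markers, 2 with DESeq2, 2 with filterByExpr and 0 to 4 without 1 mouse, with 0 without mouse 1 and 1 without mouse 4. Where edgeR called 0, unadjusted p was under 0.05 for 6 (stricter margin), 2 (WT series), 3 (only these classes) and 6 (without mouse 1) of the regulators. Against endothelial cells the 6 calls became 3 in the CB series, with its 1 endothelial sum. Leaving out 1 mouse gave 5 in every case for tumor minus hormone-sensing cells, 6 in every case against fibroblasts, 5 to 6 against endothelial cells, and 7 to 9 against both macrophages and T/NK cells. The 10 differing neighbors in the order of levels, whose alternatives were chosen after seeing the data, became 4 in the CB series, 5 in the WT series, 4 with filterByExpr and 6 to 9 without 1 mouse, with 6 without mouse 1, 4 or 5.

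Without the mouse as a replicate block, which pairs sums of the same animal, the tumor class had 5 calls against hormone-sensing cells, 6 against myoepithelial cells, 6 against fibroblasts, 6 against endothelial cells, 9 against macrophages and 8 against T/NK cells. Hormone-sensing minus myoepithelial cells had 4 and the order 9, and the call that ended was that of Sox10, tumor minus myoepithelial (log2 fold 1.85, edgeR quasi-likelihood adjusted p = 0.0776).

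Counts over all genes moved by over 1.5 times in these cases. For tumor minus hormone-sensing cells 2872 calls became 1733 (stricter margin), 518 (WT series), 1497 (filterByExpr) and 1723 (without mouse 4). For tumor minus myoepithelial cells 1567 became 104 (WT series) to 2479 (size factors), with 390 to 999 without mouse 1, 3, 4, 5 or 7, the lowest without mouse 4, and for hormone-sensing minus myoepithelial cells 1118 became 88 (WT series) at the lowest, with 355, 628, 295 and 525 without mice 1, 2, 4 and 5. For tumor minus endothelial cells 2056 became 368 (CB series) to 3144 (size factors), with 976, 1065 and 1205 without mice 4, 5 and 8. Against fibroblasts 5091 became 2620 (filterByExpr), 3002 (CB series) and 2499 (WT series), against macrophages 6103 became 2776, 3793 and 2801, and against T/NK cells 5684 became 2751, 3317 and 2392. The causes were not tested. Depth limits the myoepithelial and endothelial values, where 1 UMI is a large part of a level.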
